A study of Rattus norvegicus with 6 samples.

Results

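The genes described here encode the heat shock proteins, the J-domain proteins that work with them, and the heat shock transcription factors, measured in dorsal root ganglia of rats with bone cancer pain. They were taken from the expression table by gene symbol. The symbols were those of the Hspa, Hspb, Hspd, Hspe and Hsp90 genes, of Hsph1, of the transcription factors Hsf1, Hsf2 and Hsf4, and of the Dnaja, Dnajb and Dnajc genes. This gave 72 of the 23800 features in the table, and 68 of them were tested, having reached 1 FPKM in 3 or more of the 6 libraries. FPKM count fragments per length of transcript and per size of library, so genes and libraries are on a common scale. They do not correct for differences in RNA composition between libraries.

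The BCP group comprised Sprague Dawley rats whose left tibia was injected, into the marrow cavity, with living MRMT-1 cells (rat breast carcinoma). In the sBCP (sham) group the cells had been boiled before the same injection, so both groups carry the drilled tibia and the 10 µL of injected medium. On day 17 the L3 to L5 ganglia of the injected side were taken, and their polyadenylated RNA was sequenced. The BCP group has 3 samples, numbered 1, 2 and 3, and the sBCP group also has 3, numbered 1, 3 and 4. Age and sex were not given in the labels, nor was whether each sample came from 1 rat or from a pool, so p-values measure only the spread among these 6 samples, part of which may be technical.

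Heat shock proteins are molecular chaperones that bind unfolded or partly folded proteins. Hsp70 proteins clamp onto exposed stretches of a client in a cycle driven by ATP. J-domain proteins deliver clients and start ATP hydrolysis, and Hsp110 proteins exchange the nucleotide so that the client is released. Hsp90 finishes the folding of kinases and receptors, small Hsps hold clients out of aggregation without ATP, and the chaperonin Hsp60 with its lid Hsp10 encloses them in mitochondria. Under stress the transcription factor Hsf1 binds heat shock elements, inverted repeats of nGAAn, in the promoters of many of these genes. In sensory neurons, whose axons are very long, chaperones also serve axonal transport and synaptic vesicle cycling, and inherited defects of Hspb1 and Hspb8 cause peripheral neuropathy in people.

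Summed FPKM lay between 479167 and 495494 in the 6 libraries, and since FPKM are already scaled to library size, the table shows no sequencing depth. Neuron markers identified the tissue, with the 16 listed sensory neuron genes summing to between 9603 and 10654 FPKM in BCP and between 8743 and 10997 FPKM in sBCP libraries. BCP replicate 2 stood apart in 8 axon injury genes, which summed to 783 FPKM there and to between 266 and 303 FPKM in the other 5 libraries. It was also the highest in the 11 macrophage genes, which summed to 535 FPKM there and to between 80.8 and 223 FPKM in the others. Skeletal muscle genes separated the groups. The 16 listed muscle genes found in the table summed to between 336 and 446 FPKM in BCP and between 980 and 1457 FPKM in sBCP libraries. After adjustment, 13 of the 14 tested were called lower in BCP (limma). Pvalb, the tested gene not called, made up most of each BCP sum. Its BCP values were 412, 308 and 332 FPKM (replicates 1, 2 and 3). Those of sBCP replicates 1, 3 and 4 overlapped them (366, 356 and 396 FPKM). The sums therefore understate the gap in the other listed muscle genes. Over the 14 tested, the median BCP minus sBCP difference was -4.04 on the log2(FPKM + 1) scale. Among the 16 muscle genes, Mb was listed at 0 in BCP replicates 2 and 3, and no other was listed at 0 in any library.

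The chaperone genes as a set were measured at nearly the same level in both groups. No member was called in either direction by limma after Benjamini-Hochberg adjustment over all 13710 tested features, with 0 of 68 higher and 0 of 68 lower in BCP. Among all tested features 0.0146% were called higher and 0.168% lower, so 0 of 68 is near the background. At an unadjusted p under 0.05 there were 2 members, 2.94%, against 1.98% of all tested features. Both were lower in BCP, as 1.32% of all features were at this p, and 0 were higher, against 0.656% of all features. The BCP minus sBCP difference on the log2(FPKM + 1) scale was above 0 for 32 members and below 0 for 36, and above 0 for 45.5% of all features. Its median was -0.016 over the members and -0.011 over all tested features. Every member had an adjusted p of 1.00, rounded, in this fit. No member carried a mark of significance in the authors' deposited table, where 152 features do, and the smallest member p-value in the authors' deposited table was 0.0604.

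The intervals show how large a difference these samples leave room for. The 95% interval of the difference lay within 1 log2 unit of 0 for 67 of the 68 members, and for 94.7% of all tested features. It lay within 0.5 log2 unit of 0 for 60 members, and for 71.2% of all features. The median of the mean level was 18.3 FPKM for tested members and 9.28 FPKM for all tested features. The members' residual spread had a median of 0.132 on the log2 scale, against 0.149 for all features. The highest library was less than 1.2 times the lowest for 18 of the 68 members, and for 2864 of all 13710 tested features. Among the 18 were Hspa8, Hsph1, Hspd1, Hsf1, Dnajb2 and Dnajb6.

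**Figure D1:**
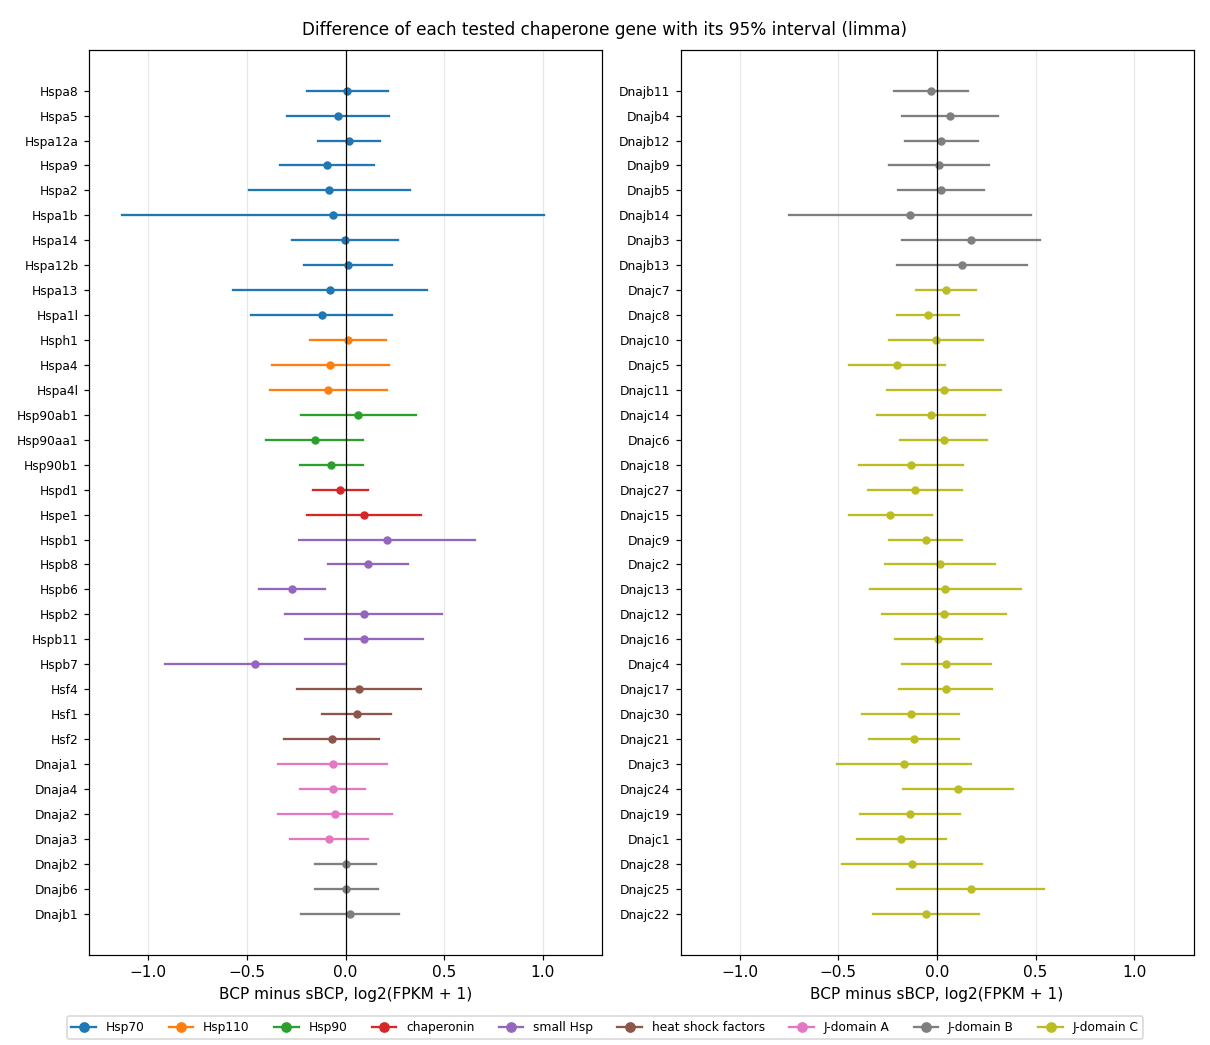
BCP minus sBCP difference on the log2(FPKM + 1) scale (x axis) for each of the 68 tested chaperone genes (rows, by role and then by level), with points for the limma estimate and lines for its 95% interval. The intervals of Hspb6 and Dnajc15 lie below 0 without adjustment, no member passed after it, and Hspa1b has the widest interval.

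The summed FPKM of all 72 members was 4582, 4929 and 4529 in the BCP libraries and 4366, 4657 and 4834 in the sBCP libraries. As a share of all FPKM this came to 0.960% ± 0.0301 in BCP libraries, against 0.957% ± 0.0548 in sBCP libraries (SD, n = 3 each). A few genes made up most of that sum. Hsp90ab1 alone held 26.4% of the mean summed level, and the leading 4 genes, Hsp90ab1, Hspa8, Hspb1 and Hsp90aa1, held 53.3%. In this order of levels, the 6 libraries of Hsp90ab1 lay apart from those of Hspa8, and those of Hspa8 from those of Hspb1. The ranges of Hspb1 and Hsp90aa1 overlapped, as did those of each neighbouring pair from Hspb8 through Dnaja1, Hsph1 and Hspa5 to Hspa12a.

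**Figure D2:**
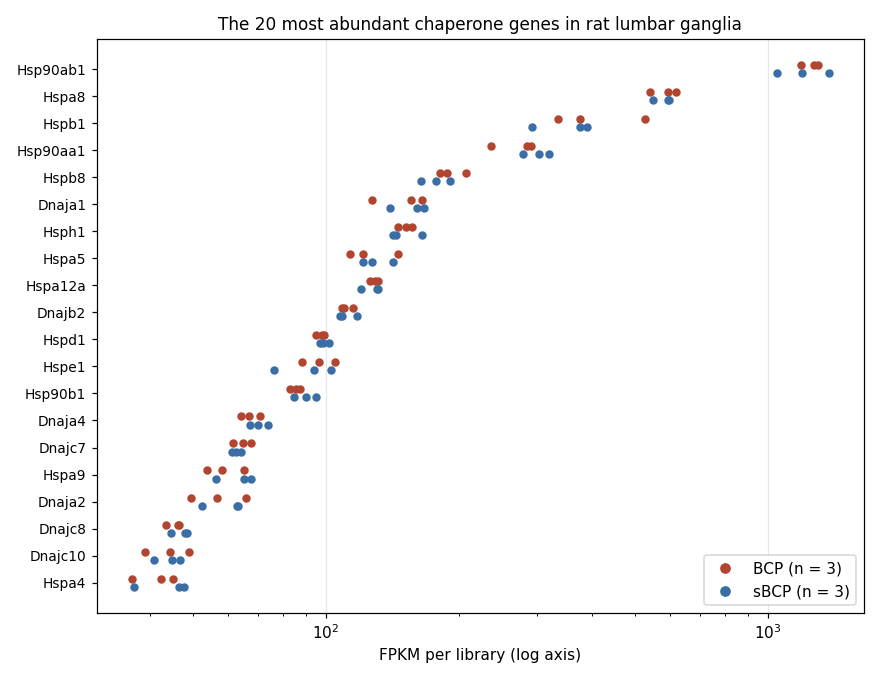
FPKM in each library (x axis, log scale) for the 20 members with the highest mean level (rows), with BCP points above sBCP points. Levels span from Hsp90ab1, between 1047 and 1372 FPKM, to Hspa4, between 36.3 and 47.8 FPKM, and the points of the groups overlap in every row.

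Hsp70 proteins were led by Hspa8, the constitutive cytosolic Hsc70, which also uncoats clathrin vesicles. Hspa8 was at 619, 594 and 542 FPKM in BCP replicates 1, 2 and 3 and at 550, 595 and 597 FPKM in sBCP replicates 1, 3 and 4. The ranges overlapped, with the highest and the lowest value both in BCP. The difference of Hspa8 was 0.01 on the log2 scale with a 95% interval from -0.20 to 0.22, and 3 features listed as RF00016 lie inside the gene on its strand. Hspa8 made up 60.2% ± 1.26 of the FPKM summed over Hsp70 genes in BCP libraries, and 59.6% ± 0.862 in sBCP libraries (SD, n = 3 each).

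The 250 bases before the Hspa8 start are shown for their heat shock element letters. Among the 55 members with a promoter to search, this promoter held them most often. The sequences here and below are RefSeq promoters of build GRCr8, written along the gene. Capitals mark the letters GAANNTTC or TTCNNGAA, each of which reads the same on both strands, and where such matches overlap they form 1 run. Hspa8 lies at chr8:50080264-50080513 on the plus strand in this stretch.
Hspa8: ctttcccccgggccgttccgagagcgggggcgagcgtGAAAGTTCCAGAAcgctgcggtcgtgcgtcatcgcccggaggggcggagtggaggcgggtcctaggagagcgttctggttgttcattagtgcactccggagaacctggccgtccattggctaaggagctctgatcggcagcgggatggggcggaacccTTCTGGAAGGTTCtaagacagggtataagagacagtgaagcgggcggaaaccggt

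Hspa5 (BiP), the Hsp70 of the endoplasmic reticulum, was at 122, 146 and 113 FPKM in BCP ganglia and at 127, 121 and 141 FPKM in sBCP libraries. Hspa9 (mortalin), the Hsp70 of mitochondria, was at 53.8, 58.2 and 65.1 FPKM across the BCP libraries and at 67.5, 65.1 and 56.4 FPKM in sBCP. The groups overlapped for both genes. Hspa12a, a distant relative of Hsp70 that is abundant in brain, was among the steadiest members, at 129 ± 2.61 FPKM in BCP and 127 ± 6.43 FPKM in sBCP (SD, n = 3 each). Its interval ran from -0.14 to 0.17 on the log2 scale. Of the 10 tested Hsp70 genes 3 were above 0 and 7 below, with a median difference of -0.05, and 0 were called.

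Hspa1b, the stress-inducible Hsp70, varied more between libraries than any other member with at least 10 FPKM on average, and is named after its values were seen. It was at 19.1, 22.3 and 7.02 FPKM in BCP replicates 1, 2 and 3 and at 8.99, 20.2 and 19.3 FPKM in sBCP replicates 1, 3 and 4. In each group 1 library, BCP replicate 3 and sBCP replicate 1, was below 10 FPKM and the other libraries were above 19 FPKM. The group means were 16.1 ± 8.04 FPKM in BCP and 16.2 ± 6.22 FPKM in sBCP (SD, n = 3 each), and the interval of the difference ran from -1.13 to 1.00, which leaves room for a change of 1 log2 unit either way. The direction of Hspa1b followed single libraries, with a difference of 0.41 once BCP replicate 3 was left out and of -0.42 once sBCP replicate 1 was left out. The table places Hspa1b on chromosome 20, from 4877324 to 4879779 (genome build not stated), where 4 other features overlap it and 3 of these share its strand. No feature carried the symbol of Hspa1a, a near-identical copy in the rat genome, so the Hspa1b value is uncertain wherever reads were shared. The other 2 tested members with more than a 2-fold range between libraries were Dnajb14 and Hspb7. This made 3 of 68 members, against 2082 of 13710 tested features, where features at 0 in any library were not counted.

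**Figure D3:**
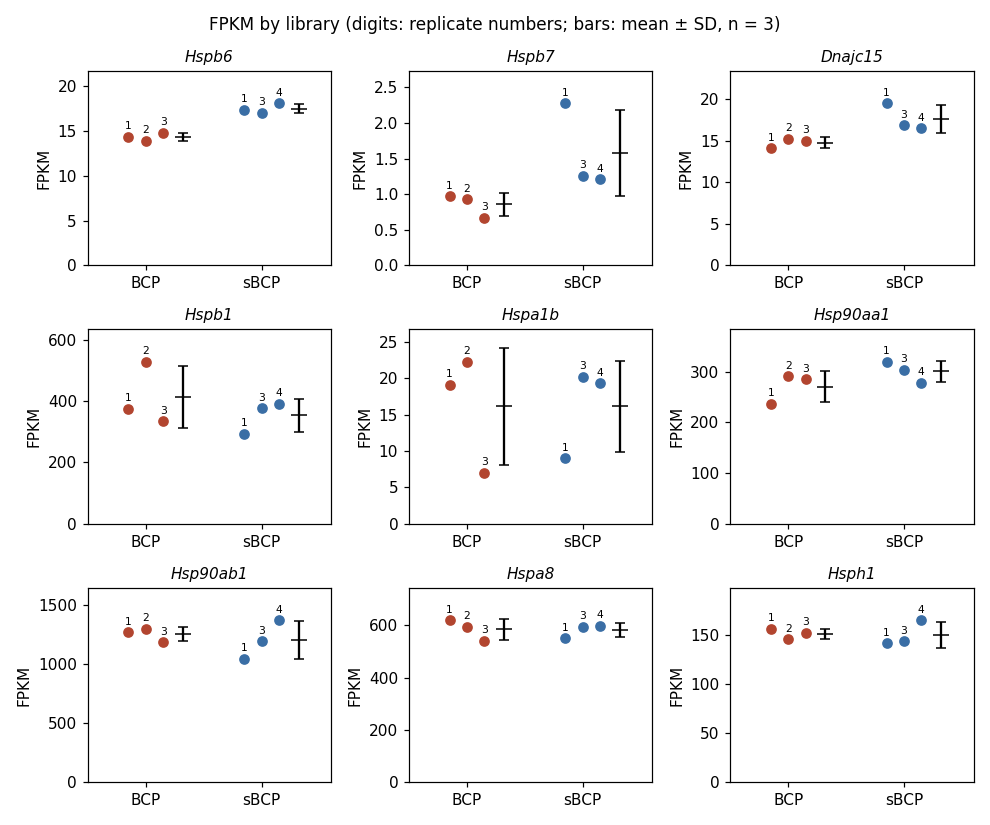
FPKM (y axis, from 0) of 9 members in each library, with BCP left of sBCP, digits for replicate numbers and black bars for the mean ± SD of 3 libraries. Of the 9 shown, Hspb6 and Dnajc15 do not overlap between groups. All BCP values lie below all sBCP values in 3.06% of all tested features. Hspb7 passed the filter only through sBCP, so its groups could not overlap once it was tested. Hspb1 is highest in BCP replicate 2, and Hspa1b is low in BCP replicate 3 and sBCP replicate 1.

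Hsp110 proteins, which exchange the nucleotide of Hsp70, were led by Hsph1. Hsph1 was at 156, 145 and 152 FPKM in BCP ganglia and at 142, 144 and 165 FPKM in sBCP libraries, and the BCP values lay inside the sBCP range. The difference of Hsph1 was 0.01 on the log2 scale with an interval from -0.18 to 0.20. Hspa4 and Hspa4l, the other Hsp110 genes, averaged 41.2 ± 4.49 and 14.4 ± 1.37 FPKM in BCP, against 43.6 ± 6.03 and 15.5 ± 2.34 FPKM in sBCP (SD, n = 3 each). Both were highest in sBCP replicate 1 and were low in BCP replicate 1 and sBCP replicate 4, so their spread crossed the groups. The promoter of Hsph1 is shown from 120 bases before its start (chr12:10427248-10427367, plus strand in GRCr8), since it holds a run of 13 such letters close to the start.
Hsph1: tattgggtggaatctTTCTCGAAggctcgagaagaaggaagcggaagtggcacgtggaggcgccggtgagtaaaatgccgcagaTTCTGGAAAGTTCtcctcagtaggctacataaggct

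Hsp90 was present in both cytosolic forms and in its endoplasmic reticulum form. Hsp90ab1, the constitutive form and the most abundant member, was at 1269, 1301 and 1186 FPKM across the BCP libraries and at 1047, 1192 and 1372 FPKM in sBCP. Hsp90aa1, the inducible form, was at 236, 291 and 284 FPKM in BCP ganglia and at 320, 304 and 279 FPKM in sBCP. The groups overlapped for both, and Hsp90ab1 was lowest in the library, sBCP replicate 1, in which Hsp90aa1 was highest. The ratio of Hsp90aa1 to Hsp90ab1 FPKM was 0.186, 0.224 and 0.240 in BCP and 0.305, 0.255 and 0.203 in sBCP libraries, overlapping between groups. The difference of Hsp90aa1 was -0.16 on the log2 scale with an interval from -0.40 to 0.09 (unadjusted p = 0.178, limma). Hsp90b1 (Grp94), which folds secreted and membrane proteins, averaged 85.3 ± 2.26 FPKM in BCP and 89.8 ± 5.03 FPKM in sBCP (SD, n = 3 each).

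The mitochondrial chaperonin pair Hspd1 (Hsp60) and Hspe1 (Hsp10) is known to lie head to head. In the table the genes sit on opposite strands of chromosome 9 with 1198 bases between them (genome build not stated). The promoter positions given below are from other gene coordinates, so their distances differ from this one. Hspd1 was at 94.9, 97.9 and 98.7 FPKM across the BCP libraries and at 102, 98.7 and 96.7 FPKM in sBCP libraries, and its interval, from -0.17 to 0.11 on the log2 scale, was among the narrowest of the members. Hspe1 was at 88.1, 105 and 96.6 FPKM in BCP ganglia and at 76.2, 93.7 and 103 FPKM in sBCP libraries. The lowest Hspe1 value and the highest Hspd1 value were both in sBCP replicate 1, so the pair did not share its order of libraries.

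Their promoter windows overlap in GRCr8 and hold the same run of 18 heat shock element letters, at chr9:64084262-64084279, read on opposite strands. The run begins 242 bases before the start of Hspd1 and 65 bases before that of Hspe1. The stretches are shown to let the shared run be compared, Hspd1 on the minus strand (chr9:64084238-64084287) and Hspe1 on the plus strand (chr9:64084237-64084286).
Hspd1: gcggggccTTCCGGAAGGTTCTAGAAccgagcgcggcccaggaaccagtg
Hspe1: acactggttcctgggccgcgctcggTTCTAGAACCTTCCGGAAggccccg

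Small Hsps held the members that differed most between the groups, although none passed after adjustment. Hspb1 (Hsp27), which protects axons and is induced by nerve injury, was at 375, 528 and 335 FPKM across the BCP libraries and at 293, 376 and 390 FPKM in sBCP libraries. BCP replicate 2 was the highest library, and the other BCP libraries lay inside the sBCP range. The difference of Hspb1 was 0.21 on the log2 scale, with an interval from -0.24 to 0.65, and 0.02 without BCP replicate 2. That library was also the highest in the axon injury genes, with Atf3 at 7.57, 40.8 and 3.72 FPKM in BCP replicates 1, 2 and 3 and at 7.19, 6.21 and 3.77 FPKM in sBCP libraries. It was the highest in the macrophage genes too, with Lyz2 at 79.1, 306 and 40.0 FPKM in BCP replicates 1, 2 and 3 and at 77.0, 124.4 and 55.0 FPKM in sBCP libraries. The part of neither list in the Hspb1 value was tested. Hspb8 (Hsp22), a partner of Bag3 in selective autophagy, was at 188, 207 and 181 FPKM in BCP ganglia and at 164, 177 and 191 FPKM in sBCP libraries. It overlapped between groups, with an interval from -0.09 to 0.32.

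Hspb6 (Hsp20), a small Hsp of smooth, cardiac and skeletal muscle, had the smallest unadjusted p of all members. It was at 14.3, 13.9 and 14.8 FPKM across the BCP libraries and at 17.3, 17.0 and 18.1 FPKM in sBCP libraries, with every BCP value below every sBCP value. The difference of Hspb6 was -0.27 on the log2 scale, with an interval from -0.44 to -0.10 and a standard error of 0.0713 (unadjusted p = 0.00671 and adjusted p = 1.00, limma). Leaving out each library in turn kept it between -0.29 and -0.25. Skeletal muscle markers were also lower in BCP. Acta1 was at 11.1, 7.62 and 7.05 FPKM in BCP ganglia and at 253, 171 and 171 FPKM in sBCP libraries. Within sBCP, Acta1 was highest in replicate 1 and Hspb6 in replicate 4. The part of the muscle markers in the Hspb6 value was not tested. The 5 tested members listed as enriched in muscle were Hspb1, Hspb2, Hspb6, Hspb7 and Hspb8. Of these, 3 were above 0 and 2 below, with a median difference of 0.09. The 8 pericyte and smooth muscle genes summed to between 66.0 and 108 FPKM in BCP and between 84.5 and 152 FPKM in sBCP libraries. In bulk tissue, fewer cells of a type and less RNA per cell cannot be told apart.

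Hspb7, known as the cardiovascular small Hsp and also found in skeletal muscle, was at 0.970, 0.928 and 0.667 FPKM across the BCP libraries and at 2.28, 1.26 and 1.21 FPKM in sBCP libraries. It reached the level for testing only through the sBCP libraries, so that its groups could not overlap once it was tested. The difference of Hspb7 was -0.46 on the log2 scale, with an interval from -0.92 to 0.003 (unadjusted p = 0.0512, limma). Hspb3, another muscle small Hsp, stayed below the filter at 0.714, 0.472 and 0.335 FPKM in BCP ganglia and at 1.63, 1.02 and 0.308 FPKM in sBCP libraries, where the groups overlapped. Hspb2, a muscle small Hsp that lies beside Cryab, averaged 13.9 ± 3.34 FPKM in BCP and 12.7 ± 0.518 FPKM in sBCP (SD, n = 3 each). Of the 6 tested small Hsps 4 were above 0 and 2 below. The germline gene Hspb9 was at no more than 0.357 FPKM in any library.

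The promoters of Hspb1 (chr12:26432352-26432451, minus strand) and Hspb6 (chr1:94934122-94934251, plus strand) are shown because these genes had the largest difference above 0 and the smallest p among the members. Each stretch holds 2 separate 8-letter matches.
Hspb1: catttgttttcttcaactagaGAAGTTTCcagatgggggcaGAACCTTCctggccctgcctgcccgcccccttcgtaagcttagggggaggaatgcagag
Hspb6: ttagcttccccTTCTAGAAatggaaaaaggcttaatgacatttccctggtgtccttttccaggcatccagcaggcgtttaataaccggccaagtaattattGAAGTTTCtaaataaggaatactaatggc

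The transcription factors that control the family overlapped between groups. Hsf1, the main stress-activated factor, was at 20.9, 18.6 and 19.0 FPKM across the BCP libraries and at 18.7, 18.7 and 18.6 FPKM in sBCP libraries. Its level is a measure of its transcript alone, since Hsf1 is activated as a protein. Hsf2, a factor of development and stress, averaged 9.82 ± 0.749 FPKM in BCP and 10.4 ± 1.02 FPKM in sBCP. Hsf4, best known from the lens, averaged 23.4 ± 1.36 FPKM in BCP and 22.5 ± 4.38 FPKM in sBCP (SD, n = 3 each).

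J-domain proteins of class A, which resemble bacterial DnaJ most closely, were all 4 below 0 by small amounts, from -0.08 to -0.05 on the log2 scale. Dnaja1, the most abundant, was at 127, 165 and 155 FPKM in BCP ganglia and at 166, 161 and 140 FPKM in sBCP libraries, with BCP replicate 1 the lowest. Dnaja2, a cytosolic partner of Hspa8, averaged 57.4 ± 8.27 FPKM in BCP and 59.4 ± 6.05 FPKM in sBCP. Dnaja3, the mitochondrial form, averaged 26.7 ± 2.39 FPKM in BCP and 28.3 ± 0.893 FPKM in sBCP, and Dnaja4 averaged 67.3 ± 3.29 FPKM in BCP and 70.5 ± 3.25 FPKM in sBCP (SD, n = 3 each). The intervals of all 4 included 0, and the sign of the difference turned for Dnaja1 (0.05) and Dnaja2 (0.05) without BCP replicate 1.

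Class B was led by Dnajb2, a form rich in neurons that passes clients to the proteasome. Dnajb2 was at 109, 115 and 110 FPKM across the BCP libraries and at 108, 109 and 117 FPKM in sBCP libraries, with equal group means to 3 digits, 111 ± 3.30 and 111 ± 5.24 FPKM (SD, n = 3 each). Dnajb1 (Hsp40), the stress-inducible partner of Hsp70 and a standard readout of Hsf1 activity, was at 28.4, 32.3 and 25.4 FPKM in BCP ganglia and at 26.0, 30.1 and 28.3 FPKM in sBCP libraries. Its highest and lowest values were both in BCP, and its interval ran from -0.22 to 0.27. Dnajb6, a suppressor of polyglutamine aggregation, averaged 33.3 ± 0.772 FPKM in BCP and 33.3 ± 1.65 FPKM in sBCP, and Dnajb11, a partner of Hspa5, averaged 23.1 ± 1.78 FPKM in BCP and 23.6 ± 0.844 FPKM in sBCP (SD, n = 3 each). Of the 11 tested class B genes 9 were above 0 and 2 below, with a median difference of 0.02. Dnajb14, a membrane protein of the endoplasmic reticulum named after its values were seen, was at 3.76, 2.78 and 5.75 FPKM across the BCP libraries and at 6.11, 4.26 and 3.31 FPKM in sBCP libraries. The 120 bases before the Dnajb1 start (chr19:41431142-41431261, minus strand) hold 1 match close to the start.
Dnajb1: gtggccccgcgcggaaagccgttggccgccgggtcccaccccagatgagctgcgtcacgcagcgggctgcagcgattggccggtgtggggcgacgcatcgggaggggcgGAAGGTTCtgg

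Class C, the most varied, had 26 tested genes, of which 11 were above 0 and 15 below. Dnajc15, a J-domain protein of the mitochondrial inner membrane, was at 14.1, 15.3 and 14.97 FPKM in BCP ganglia and at 19.5, 16.8 and 16.5 FPKM in sBCP libraries, with every BCP value below every sBCP value. The difference of Dnajc15 was -0.24 on the log2 scale with an interval from -0.45 to -0.03 (unadjusted p = 0.0332 and adjusted p = 1.00, limma). Dnajc1, a J-domain protein of the endoplasmic reticulum membrane, was at 4.11, 4.27 and 4.17 FPKM across the BCP libraries and at 4.82, 5.08 and 4.73 FPKM in sBCP libraries, again without overlap (unadjusted p = 0.101, limma). With Hspb6 these made 3 members with all BCP values below all sBCP values, beside Hspb7, whose groups could not overlap once it was tested. Among all tested features, with none left out for such a reason, the share was 3.06%. No member had all BCP values above all sBCP values (0 of 68), against 2.34% of all tested features.

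Dnajc5, cysteine string protein alpha, keeps SNARE proteins folded at nerve terminals. Dnajc5 was at 28.5, 31.97 and 36.8 FPKM in BCP ganglia and at 38.8, 38.2 and 34.9 FPKM in sBCP libraries. The groups overlapped through BCP replicate 3, and the interval of the difference ran from -0.45 to 0.04 (unadjusted p = 0.0899, limma). Dnajc7, a cytosolic protein that binds both Hsp70 and Hsp90, averaged 64.7 ± 2.95 FPKM in BCP and 62.6 ± 1.43 FPKM in sBCP (SD, n = 3 each). Dnajc8, a protein of the splicing machinery, averaged 45.4 ± 1.66 FPKM in BCP and 46.9 ± 2.03 FPKM in sBCP, and Dnajc10 (ERdj5), a disulfide reductase, averaged 44.1 ± 5.05 FPKM in BCP and 44.1 ± 3.05 FPKM in sBCP (SD, n = 3 each). Dnajb7 and Dnajc5b, known from testis, were below the filter, and Dnajc5b was at no more than 0.189 FPKM in any library.

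**Figure D4:**
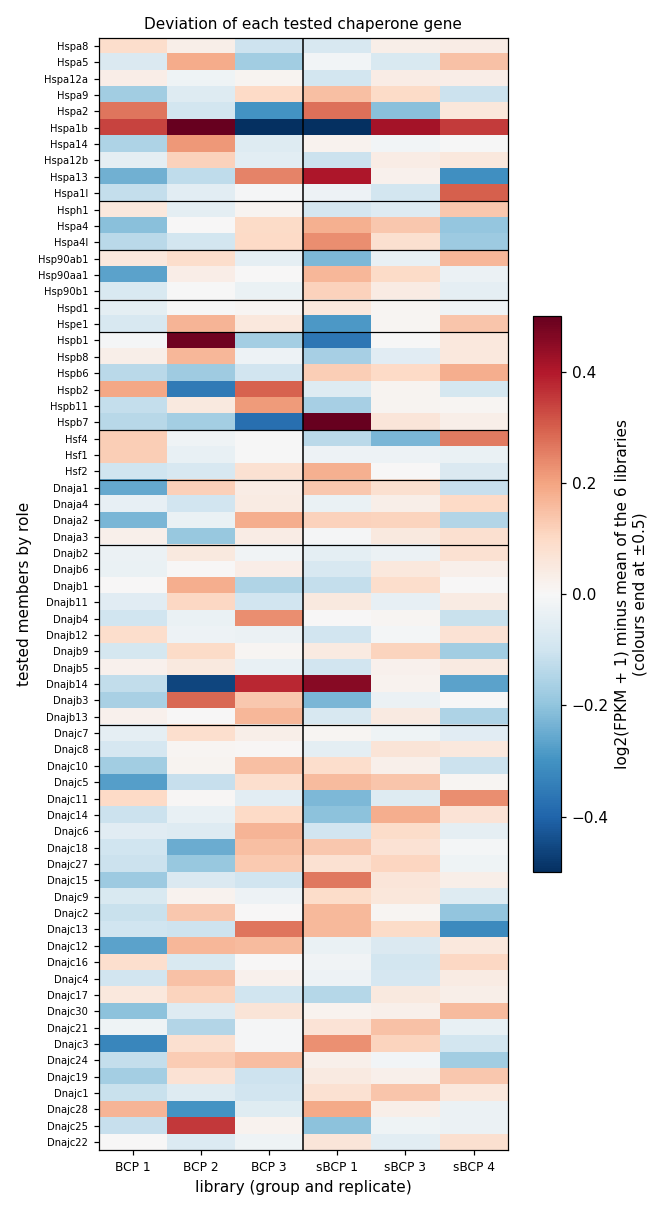
Log2(FPKM + 1) of each of the 68 tested members (rows, by role) minus its mean over the 6 libraries (columns, BCP left of sBCP), with red above and blue below the mean and colours ending at ±0.5. Most rows hold both colours on each side of the line between the groups, and Hspa1b, Hspb1, Hspb7 and Dnajb14 show the strongest colours.

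Members were also grouped by compartment. The lists used are partial, and that of the endoplasmic reticulum leaves out, for example, Dnajb14, so the counts hold only for the genes listed. Of 9 tested members listed for the endoplasmic reticulum 2 were above 0 and 7 below (median difference of -0.04 on the log2 scale). Of 8 listed mitochondrial members 3 were above 0 and 5 below (median of -0.05). Of 12 members known as Hsf1 targets 7 were above 0 and 5 below (median of 0.01). None of these groups held a call, with 0 members past the threshold in each, and all tested features had a median of -0.01.

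The libraries differed in which members were highest in them. sBCP replicate 1 was the highest library for 18 members and the lowest for another 18, and BCP replicate 1 was the lowest for 21 and the highest for 3. Over all tested features sBCP replicate 1 was highest in 28.5% and lowest in 18.8%, and BCP replicate 1 was lowest in 21.8% and highest in 9.25%, so the members' shares (26.5% and 26.5%, and 30.9% and 4.41%) ran in the same order for BCP replicate 1. BCP replicate 2 was the highest library for 16 members, 23.5%, against 21.0% of all features.

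Other genes of the folding pathways were likewise not called. Of 32 co-chaperones 31 were tested, with 0 higher and 0 lower, 19 above 0 and 12 below (median of 0.02). Ppid, the cyclophilin that docks on Hsp90, had the smallest p among them, at 17.9, 24.5 and 18.6 FPKM in BCP and 26.1, 23.9 and 22.3 FPKM in sBCP libraries (unadjusted p = 0.0971, limma). St13 (Hip), which stabilises Hsp70 bound to a client, averaged 136 ± 11.9 FPKM in BCP and 147 ± 3.28 FPKM in sBCP (SD, n = 3 each). Of 14 chaperonin CCT and prefoldin genes, which fold actin and tubulin, 0 were called, 7 were above 0 and 7 below. In that list Pfdn4 averaged 40.3 ± 3.80 FPKM in BCP and 44.8 ± 4.16 FPKM in sBCP, and Pfdn6 averaged 63.4 ± 3.62 FPKM in BCP and 58.7 ± 5.76 FPKM in sBCP.

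Of 20 genes of endoplasmic reticulum stress 19 were tested and 0 called, with 9 above 0 and 10 below. Sdf2l1, a partner of Dnajb11, averaged 9.33 ± 1.29 FPKM in BCP and 8.17 ± 0.759 FPKM in sBCP, and Pdia6, a disulfide isomerase, averaged 84.6 ± 5.08 FPKM in BCP and 90.1 ± 2.35 FPKM in sBCP (SD, n = 3 each). Of 14 further Hsf1 targets 0 were called, with 8 above 0 and 6 below. P4ha1, a prolyl hydroxylase of collagen, had the smallest p in that list (unadjusted p = 0.0316, limma). It was at 19.5, 22.2 and 19.3 FPKM in BCP and 23.9, 23.9 and 23.1 FPKM in sBCP libraries, without overlap. Of all tested features, 3.06% had every BCP value below every sBCP value. Cryab (alphaB-crystallin), a small Hsp abundant in muscle and glia, was at 176, 136 and 159 FPKM in BCP and 213, 153 and 172 FPKM in sBCP libraries, with overlap.

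Heat shock element letters were searched in the RefSeq promoters, from 250 bases before to 50 after each start. By symbol or gene ID, 55 of the 72 members had a promoter in the table. Of these, 15 held GAANNTTC or TTCNNGAA, 27.3%, against 15.9% of all 33469 promoters of the same length. The 13-letter forms GAANNTTCNNGAA and TTCNNGAANNTTC, which contain the 8-letter ones, were in 5 of the 55, 9.09%, against 0.798% of all promoters. The 5 were Dnaja1, Hspa8, Hspd1, Hspe1 and Hsph1, and the Dnaja1 match lay after its start. Hspd1 and Hspe1 hold the same run, which was counted for both genes. The difference in expression had a median of 0.01 on the log2 scale over these 5, from -0.07 to 0.09. It was -0.03 over the 15 with an 8-letter match and -0.03 over the 37 tested members with none, so the difference between groups was close to 0 with and without these letters.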

How the data were processed

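Total RNA (5 µg, RIN above 7) was purified on poly-T beads and sequenced in pairs with inserts of 300 bp, per the labels' protocols. The authors deposited FPKM per Ensembl rat gene and library, per the file headers, with their fold change (the ratio of group means), its log2, and a p-value and q-value per gene, also deposited by the authors. For the aligner, the counting tool, the genome build and the use of strand, these sources gave no information.

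Every feature that reached 1 FPKM in 3 or more of the 6 libraries entered a fit of log2(FPKM + 1) by limma (version 3.58.1, R 4.3.3), two-sided, moderated by empirical Bayes with a variance trend and without covariates. Adjustment was by Benjamini-Hochberg over 13710 features at 0.05. For genes of low level such a difference is smaller than the true fold change. The fit was tested on simulated data. The settings varied were the pseudocount, the filter, the scaling, the variance model, array weights, a block for replicate number, and single replicates left out. Library depth is unknown, so no counting interval is given. No pair of libraries shared its values.

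The members, lists, promoter motifs and tests were chosen with earlier results of these data known. Genes named are Hspa8, Hsph1 and Dnajb1, up to 4 tested members with the highest mean FPKM per role, the 5 members with the smallest p, and 2 genes per pathway list. Others are named where a small count or a spread singled them out after their values were seen. A planned comparison of protein sequences was not run. RefSeq promoters (GRCr8) matched 55 members by symbol or gene ID. The other 17 were Dnaja2, Dnajb4, Dnajc2, Dnajc5b, Dnajc8, Dnajc11, Dnajc12, Dnajc15, Dnajc22, Dnajc24, Hsf1, Hsf4, Hsp90aa1, Hspa1b, Hspa12a, Hspb2 and Hspb11. Figures were drawn with matplotlib 3.10.9.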

Additional observations from a re-analysis of the deposited data

How the results depend on the processing

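Absolute depth is unknown, and with 3 libraries a group the smallest exact permutation p is 0.10, so the calls rest on spreads shared over features. No chaperone gene was called under any of the 15 alternatives (0 members in each), and their median difference stayed between -0.05 and -0.001. Over all features the count called higher was 2, and it was 4 with array weights (whose estimate had not converged), 1 with a mean of at least 5 FPKM, 1 with no filter and 10 with the replicate block, while 23 were called lower and 35 with array weights. Leaving out each replicate gave 0 to 4 features higher and 6 to 20 lower, with 0 higher without BCP replicate 1 or BCP replicate 3, and 6 lower without sBCP replicate 3. The causes were not tested. The replicate numbers 1 and 3 are shared by the groups. Deviations of same-numbered libraries from their group means correlated at 0.06 and -0.10 over 13710 features. Differently numbered pairs ranged from -0.22 to 0.23. With so few libraries these values cannot show whether same-numbered libraries share more than a number. Hspb7 has no value at a mean of at least 5 FPKM or without an sBCP replicate, since it then falls below the filter.

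Of the 44 genes whose differences were followed, 20 kept their sign under every alternative in which they could be fitted. Among them were Hspb6, Hspb7, Hspb1, Hspb8, Dnajc15, Dnajc5, Dnajc1 and Hsp90aa1. Hspb6, Dnajc15, Hspb7, Dnajc5 and Dnajc1 were the members with the smallest p in these same data. Their kept sign is therefore no separate evidence of a difference. Hspb7 was tested only through its sBCP values, so the filter had already set its sign. Of the 44 followed genes, the remaining 24 had differences from -0.18 (Cryab) to 0.09 (Hspe1) in the fit as reported. Their sign turned under at least 1 alternative, and no adjusted p passed. With array weights the log2 difference was 0.0121 for Cryab, -0.0633 for Dnajb1, 0.00514 for Dnajb11, -0.0433 for Dnajb6, -0.0137 for Hspa12a, 0.0236 for Hspa5 and -0.0109 for Hspa8. With the replicate block it was 0.0111 for Dnaja3, 0.000926 for Dnaja4, -0.0571 for Dnajb1 and -0.00158 for Dnajc7. With quantile normalization it was -0.00347 for Dnajb2, 0.00571 for Dnajc10, -0.0367 for Hsp90ab1, -0.0246 for Hspa8 and -0.00189 for Hsph1. With median-ratio rescaling it was 0.0089 for Dnajc10. Leaving out each replicate gave ranges that crossed 0. They were -0.142 to 0.045 for Dnaja1, -0.157 to 0.0471 for Dnaja2, -0.0629 to 0.104 for Dnajb1, -0.0917 to 0.00693 for Dnajb11, -0.359 to 0.0594 for Dnajb14 and -0.0234 to 0.0388 for Dnajb2. They were -0.037 to 0.0297 for Dnajb6, -0.0831 to 0.0797 for Dnajc10, -0.127 to 0.000122 for Hsf2, -0.0295 to 0.215 for Hsf4, -0.0318 to 0.163 for Hsp90ab1, -0.0251 to 0.0393 for Hspa12a and -0.416 to 0.412 for Hspa1b. They were -0.193 to 0.00954 for Hspa4, -0.200 to 0.00744 for Hspa4l, -0.142 to 0.0379 for Hspa5, -0.0322 to 0.0641 for Hspa8, -0.0332 to 0.291 for Hspb2, -0.0266 to 0.186 for Hspe1 and -0.0276 to 0.0822 for Hsph1.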
